A study of Canis lupus familiaris with 12 samples.

Results

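The genes described here are zinc finger transcription factors expressed in MDCK, an epithelial line from dog kidney that forms sheets in culture. They were taken as the rows of the deposited tables whose symbol starts with ZNF and a digit, ZSCAN, ZKSCAN, ZBTB, KLF and a digit, or GATA and a digit, and whose mean level over all libraries was at least 0.5 TPM (a level corrected for transcript length and library size). Of 229 rows with such a symbol 203 met that level, out of 31121 genes in the tables. They comprised 159 ZNF, 26 ZBTB, 7 KLF, 7 ZSCAN and 4 ZKSCAN genes, and no GATA gene. The tables gave a symbol for 13022 of the 31121 genes, and for 7682 of the 14169 that were tested. Genes of these families that lack a symbol there could not be found, so their absence here does not mean that they were not expressed. All 203 passed the filter on low counts that preceded the tests. The rule used mean level only and no comparison between groups.

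The study exposed MDCK cells to 25 µM Yoda1, which activates Piezo1, a channel gated by membrane tension. There were 4 groups of 3 libraries: C1 and T1 are the control and the Yoda1 group at 12 h, and C2 and T2 are the control and the Yoda1 group at 24 h. The labels give the Yoda1 dose and times, and the deposited sample sheet gives the times of the controls. The sources used here do not give what the controls received. All groups grew in medium with serum and antibiotics, and nothing in the labels says that replicates were separate cultures, so p-values cover the spread of the libraries at hand alone, and that spread may be technical.

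A zinc finger is a short protein loop held together by a zinc ion, and in the C2H2 type a row of such loops reads the DNA sequence base by base. Most ZNF proteins are built from many C2H2 fingers. A large share of them carry a KRAB domain, which recruits the co-repressor TRIM28 and the histone methyltransferase SETDB1 to silence chromatin, above all at mobile elements. ZBTB proteins join fingers to a BTB domain that pairs proteins and binds co-repressors. KLF proteins share a set of fingers that binds GC-rich and CACCC elements and include both activators and repressors of epithelial growth and differentiation. ZSCAN and ZKSCAN proteins carry a SCAN domain for dimer formation. The symbol is not proof of such a protein: ZBTB8OS, which matched the rule, lies opposite ZBTB8 genes and encodes a partner of the tRNA ligase complex.

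Library totals ran from 20709218 to 38889592 counts, of which the 203 genes held 0.437% to 0.544%. The scaling factors of the libraries were 0.976 to 0.979 in C1 and 0.993 to 1.03 in the other groups. The cells were checked against marker lists. The 5 epithelial markers in the tables, CDH1 and KRT18 among them, summed to between 1350 and 2340 TPM per library, with 1350 to 1790 TPM in the Yoda1 groups and 2060 to 2340 TPM in the controls. The 6 fibroblast markers summed to at most 0.53 TPM, with DCN and LUM at 0, and the 2 leukocyte markers to at most 0.1 TPM. The 4 endothelial markers summed to between 3.72 and 6.06 TPM, nearly all of it KDR.

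Levels differed over a wide range. KLF5, which supports proliferation of epithelial cells, had the highest mean of the 203 genes at 245 TPM (180.47 to 297.96 over the 12 libraries), followed by KLF6, an early-response family member, at 139 TPM (79.88 to 183.54) and ZNF664 at 109 TPM (87.43 to 132.71). The ranges of KLF6 and ZNF664 overlapped. Next came ZNF146, a protein made almost wholly of fingers, at 66.4 TPM. The highest ZBTB genes were ZBTB38, a reader of methylated DNA, at 50.1 TPM and ZBTB7B, known as a lineage regulator of T cells, at 48.6 TPM, with ranges of 37.43 to 60.39 and 41.2 to 55.52 TPM that overlapped. The class medians of mean TPM were 21.2 for KLF, 8.94 for ZBTB, 8.27 for ZNF, 2.86 for ZKSCAN and 2.15 for ZSCAN. Nearest to the limit were ZNF157 at 0.53 TPM and ZNF214 at 0.655 TPM inside it, and GATA4 at 0.496 TPM and ZBTB37 at 0.374 TPM outside. GATA5 stood at 0.0075 TPM and GATA1 at 0, as did ZBTB16. No other GATA symbol of the rule was in the tables, so GATA genes take no part in what follows.

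**Figure D1:**
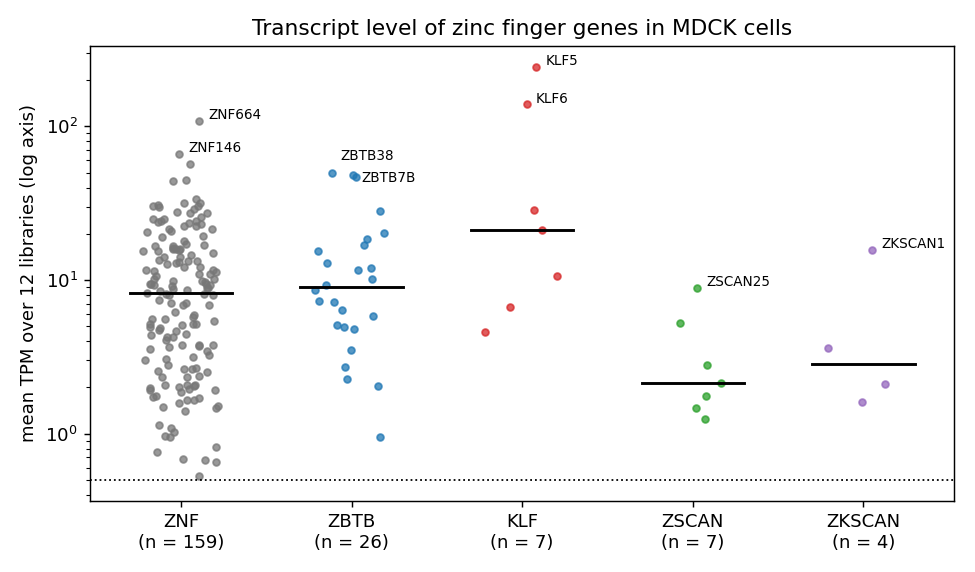
Mean TPM over the 12 libraries (log axis) of each of the 203 genes, by class; each point is a gene, black bars are class medians and the dotted line is the limit of 0.5 TPM. KLF5 at 245 TPM and KLF6 at 139 TPM stand above every ZNF and ZBTB gene, and the KLF median of 21.2 TPM lies above the ZNF median of 8.27 TPM.

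The first question was how many of these genes changed with Yoda1. At 12 h, 10 of the 203 genes rose and 2 fell (edgeR's quasi-likelihood test, adjusted p under 0.05 over all 14169 genes tested), or 5.91% of the members, where 6.99% of all genes tested were called. By direction, 4.93% of the members rose against a background of 3.01%, and 0.985% fell against 3.97%. The background of rises moved with the scaling. It was 5.27% with scaling by library size, where 17 members rose, and 4.74% with log2(TPM + 1), where 10 did. At 24 h, 15 rose and 8 fell, or 11.3% of the members against a background of 18.6%. There 7.39% rose against 8.96% of all genes, and 3.94% fell against 9.61%. The share of zinc finger genes called was thus near the background at 12 h and below it at 24 h. At 24 h the share that rose was near its background, and the share that fell was below its own. Every change of a called member was less than 2-fold, with log2 fold changes from -0.60 to 0.59 at 12 h and from -0.98 to 0.85 at 24 h.

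These counts rested on few libraries. At 12 h the count of 12 dropped to 4 without C1 replicate 1 or C1 replicate 3 and to 6 without C1 replicate 2. It was 2 without T1 replicate 1, 1 without T1 replicate 3, 19 without C2 replicate 1 and 18 without C2 replicate 2. The share of all genes called moved with it, from 6.99% to between 2.46% and 3.02% when a C1 library was left out. It was 1.73% and 1.16% in the fits lacking T1 replicate 1 and T1 replicate 3, and 11.6% and 11.7% in those lacking C2 replicate 1 and C2 replicate 2. At 24 h the count of 23 became 14 without C2 replicate 3 and 9 without T2 replicate 2 or T2 replicate 3, and 8 when only the 6 libraries of C2 and T2 were fitted, where the share of all genes called was 11.4%, 8.81%, 7.88% and 8.15%. By DESeq2 20 members were called at 12 h, with 11.6% of all genes. Of the called members at 24 h 65.2% were higher, against 76% of 25 with scaling by library size alone and 76.2% of 21 with log2(TPM + 1). The share over all called genes moved the same way, from 48.3% to 57.1% and 59.5%. At 12 h 83.3% of the 12 called members were higher, against 89.5% of 19 and 90.9% of 11 under these settings. There the share over all called genes went from 43.1% to 59.4% and 64.4%.

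Below the threshold, positive values were in the majority. The log2 fold change was above 0 in 138 of 203 genes (68%) at 12 h, where 51% of all genes tested were above 0, and in 123 (60.6%) at 24 h, against 48.2% of all. Median log2 fold changes were 0.093 at 12 h and 0.048 at 24 h, beside 0.006 and -0.015 over all genes tested. Among the fits that left out 1 library, the members' median at 12 h ran from 0.061 without T1 replicate 1 to 0.138 without T1 replicate 2. At 24 h it was 0.018 without T2 replicate 1, 0.081 without C2 replicate 1 and 0.076 without C2 replicate 3. The median of all genes lay near 0 in the main fit and moved with the setting. At 24 h it changed sign, to 0.017 with scaling by library size and 0.026 with log2(TPM + 1). At 12 h it was 0.046 with library size, 0.064 with log2(TPM + 1) and 0.08 with log2(TPM + 0.1). The members' medians at 12 h in these settings were 0.135, 0.137 and 0.161. All 3 Yoda1 libraries lay above all 3 controls in 47 genes at 12 h (23.2%, background 16.4%) and below them in 10 (4.93%, background 16.3%). At 24 h the counts were 43 (21.2%, background 16.6%) and 21 (10.3%, background 16.2%). Summed over the 203 genes, the level was 2628.1, 2380.2 and 2669 TPM in C1 and 2988, 2691.3 and 2845.8 TPM in T1, without overlap. It was 2571.2, 2817.9 and 2573.4 TPM in C2 and 3076.6, 2777.6 and 2860.9 TPM in T2, where the groups overlapped. TPM of all genes tested moved too, read as the median deviation of log2(TPM + 1) from each gene's mean over the 12 libraries. That median was -0.02, -0.087 and -0.012 in C1 and 0.051, -0.016 and 0.034 in T1, which overlapped. In bulk samples, more cells that express a gene and more RNA per cell cannot be told apart. The summed epithelial markers, with KRT18 the highest at a mean of 1220 TPM, were lower in the Yoda1 groups, opposite to the sums of the 203 genes. Of these 5 markers 2 were called lower at 12 h and 4 at 24 h, where 3.97% and 9.61% of all genes tested were. TJP1 was not called (log2 fold changes 0.22 and 0.04), and OCLN stood at 0.10 at 12 h. The scaling factors were lowest in C1. The part of markers and scaling factors in the sums of the 203 genes was not tested.

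The classes were then compared, beside the 6.99% of all genes called at 12 h and the 18.6% at 24 h. In the ZNF class 8 of 159 genes rose and 1 fell at 12 h (5.66% called), and 12 rose and 6 fell at 24 h (11.3%). In the ZBTB class 1 of 26 rose and 1 fell at 12 h (7.69%), and 2 rose and 1 fell at 24 h (11.5%). ZBTB8OS was not called, so without it the counts apply to 25 genes. Of the 7 KLF genes edgeR called 0 at 12 h (1 at an unadjusted p under 0.05, as were 23.4% of all genes, 1 by DESeq2, KLF3, and 0 by limma voom), while 1 rose and 1 fell at 24 h (28.6%). The median log2 fold changes of ZNF, ZBTB and KLF were 0.084, 0.111 and 0.105 at 12 h and 0.038, 0.085 and 0.248 at 24 h. The KLF median at 24 h rested on the C2 libraries: it was 0.116, 0.429 and 0.156 without C2 replicates 1, 2 and 3. At 12 h it was 0.049 without C1 replicate 2 and 0.06 without T1 replicate 2. The ZNF median was 0.043 at 12 h without T1 replicate 1, 0.128 at 12 h without T1 replicate 2, 0.014 at 24 h without T2 replicate 1, 0.067 at 24 h without C2 replicate 1 and 0.059 at 24 h without T2 replicate 2. The ZBTB median was 0.068 at 12 h without C1 replicate 2 and 0.047 at 24 h without C2 replicate 2. The KLF median at 12 h reached 0.179 without C1 replicate 3. Each of these medians stayed above 0 in every fit run, and the classes' middle ranges overlapped: from -0.055 to 0.241 for ZNF, -0.034 to 0.203 for ZBTB and -0.06 to 0.15 for KLF at 12 h. The difference between classes was not tested.

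**Figure D2:**
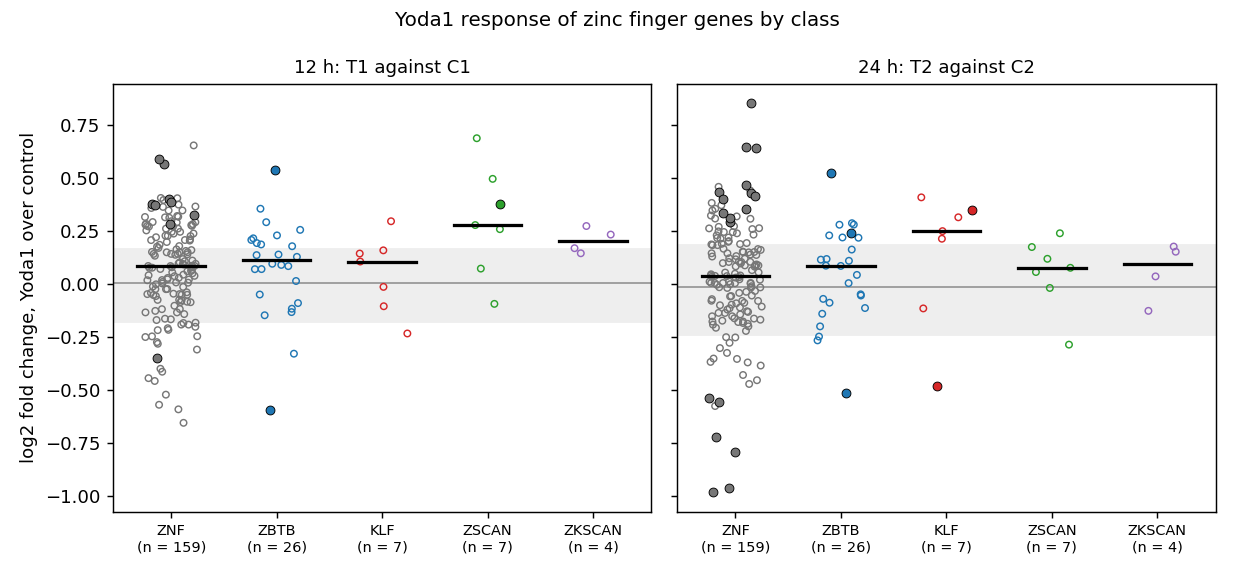
Log2 fold change of Yoda1 over control for each gene by class, at 12 h (left) and 24 h (right); filled points were called at an adjusted p under 0.05, open points were not, black bars are class medians, and the grey band and line are the middle range and median of all genes tested. Class medians lie above the line for all genes, called genes are few, and the points of the 3 main classes overlap.

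KLF3 was the KLF gene with the clearest change. It encodes a repressor that works through the co-repressor CTBP. Its CPM (counts scaled to the size of the library) were 63.4, 63.5 and 65.8 in C1 and 56.1, 52.5 and 55.2 in T1, and 67.0, 71.0 and 68.0 in C2 and 54.5, 44.7 and 48.3 in T2. The Yoda1 libraries lay below the controls at both times without overlap. KLF3 fell at 24 h (-0.48 ± 0.08, log2 fold change ± SE with 3 libraries per group, edgeR adjusted p = 0.00169), a call kept whichever of the 12 libraries was left out. At 12 h its value was -0.23 ± 0.08 with an adjusted p of 0.0882, and it was called there by DESeq2 (adjusted p = 0.0398) and with only the 6 libraries of that time (edgeR adjusted p = 0.0465). The genes of other classes whose log2(TPM + 1) followed KLF3 most closely over the 12 libraries were ZNF362 (Pearson's r = 0.914), ZBTB22 (0.825) and ZNF608 (0.797); these libraries share their groups and scaling, so the values are descriptive.

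KLF5 rose at 24 h, from 300.4, 384.4 and 350.1 CPM in C2 to 446, 442 and 428 CPM in T2 (0.35 ± 0.09, edgeR adjusted p = 0.0211). Its C2 libraries were lower and more spread than the T2 libraries, and the call was lost without C2 replicate 3 or any of the T2 libraries (edgeR adjusted p = 0.0514 to 0.07) and with only the 6 libraries of 24 h (edgeR adjusted p = 0.0737). At 12 h KLF5 stood at 411, 371 and 407 CPM in C1 and 472, 406 and 447 CPM in T1, which overlapped. KLF6 ran from 125.7 over 179 to 275 CPM in C2 and from 227 to 249 CPM in T2. KLF7, a relative expressed in many tissues, ran from 46.2 over 48.3 to 77.1 CPM in C2 and from 66.9 to 69.0 CPM in T2. In both genes the highest C2 library was replicate 2, which lay above all T2 libraries, and the lowest was replicate 1. Without C2 replicate 2 KLF6 and KLF7 were called higher at 24 h (0.65 and 0.52, edgeR adjusted p = 0.00372 and 0.00363), while with it their values were 0.31 ± 0.21 and 0.25 ± 0.16 (edgeR adjusted p = 0.331 and 0.319). C2 replicate 1 was also the lowest C2 library for KLF5 and KLF15.

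The remaining KLF genes were not called at either time. KLF11, a repressor induced by TGF-beta, had 8.04 to 9.305 CPM in C1 and 10.2 to 11.4 CPM in T1, without overlap (0.29 ± 0.15, edgeR adjusted p = 0.248). At 24 h its value was 0.21 ± 0.14, and it was called without C2 replicate 1 (0.40, edgeR adjusted p = 0.039), where that library had the highest C2 value, 12.0 CPM. KLF12, which represses the AP-2alpha gene, gave -0.11 ± 0.13 at 12 h and -0.12 ± 0.12 at 24 h. KLF15, a kidney and metabolic regulator, had 9.33 to 14.1 CPM in C1, 10.1 to 11.9 CPM in T1, 4.66 to 7.99 CPM in C2 and 7.85 to 9.93 CPM in T2. Its C2 libraries lay below all C1 libraries. The log2 fold change of KLF15 with Yoda1 was -0.01 ± 0.20 at 12 h and 0.41 ± 0.20 at 24 h (edgeR adjusted p = 0.177 at 24 h).

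**Figure D3:**
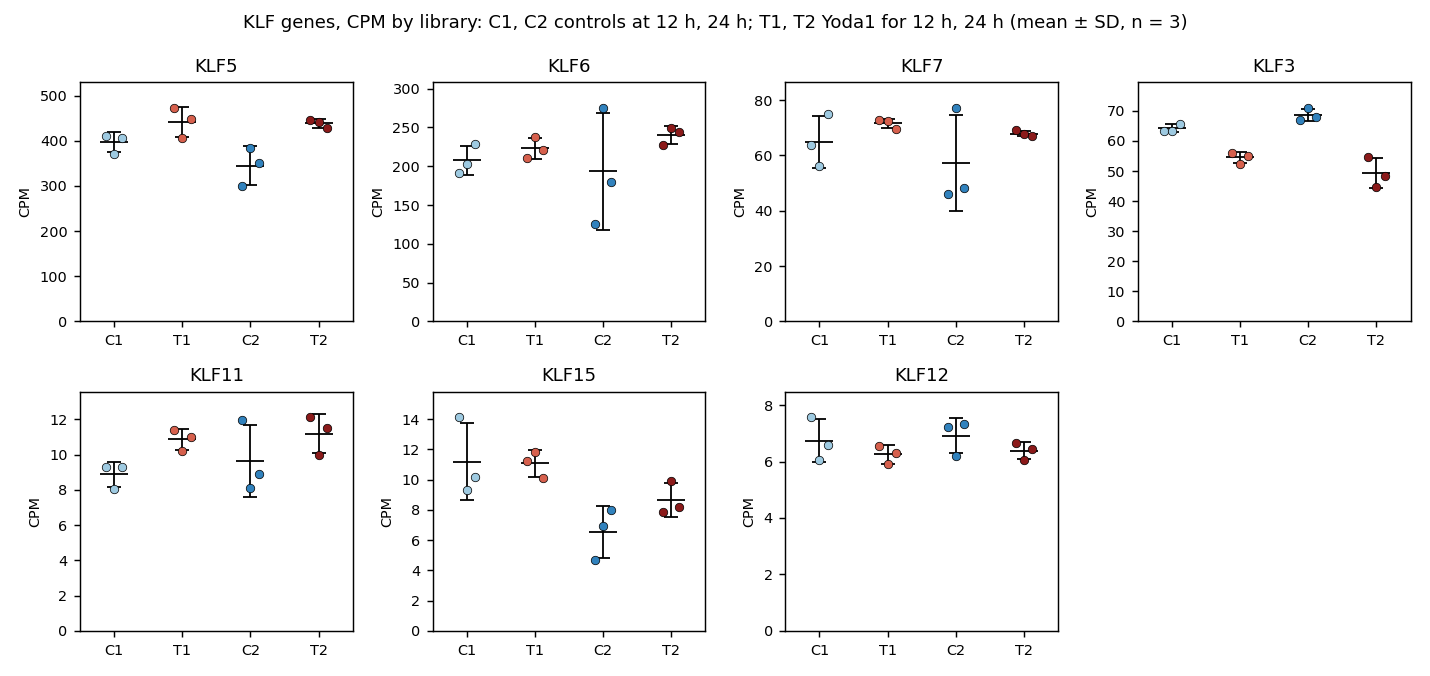
CPM of the 7 KLF genes in each library, ordered by mean TPM; points are the 3 libraries of a group, bars are mean ± SD. KLF3 is lower in both Yoda1 groups without overlap, and the C2 libraries of KLF6 and KLF7 spread from 125.7 to 275 CPM and from 46.2 to 77.1 CPM.

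Among ZBTB genes, ZBTB11 rose at both times. It encodes a factor linked to genes of mitochondrial function. Its CPM were 36.9, 29.9 and 33.4 in C1, 52.9, 42.6 and 49.7 in T1, 35.1, 39.7 and 34.6 in C2, and 55.2, 49.4 and 52.5 in T2. Every Yoda1 library lay above every control library. The log2 fold change was 0.54 ± 0.10 at 12 h (edgeR adjusted p = 0.0109) and 0.52 ± 0.10 at 24 h (edgeR adjusted p = 0.00451). The call held in all 12 fits at 24 h and was lost at 12 h without T1 replicate 1 or T1 replicate 3 (edgeR adjusted p at most 0.0587).

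ZBTB7C, which interacts with p53, fell at 12 h, from 18.1, 19.04 and 16.6 CPM in C1 to 10.2, 14.3 and 11.1 CPM in T1 (-0.60 ± 0.14, edgeR adjusted p = 0.0225). The call was lost without C1 replicate 1, C1 replicate 2, T1 replicate 1 or T1 replicate 3. At 24 h its C2 libraries had 15.7, 13.5 and 17.9 CPM and its T2 libraries 13.2, 13.5 and 12.9 CPM, which overlapped (-0.25 ± 0.13, edgeR adjusted p = 0.223). ZBTB22 fell at 24 h, from 9.16, 9.18 and 8.94 CPM in C2 to 7.2, 6.45 and 5.48 CPM in T2 (-0.51 ± 0.13, edgeR adjusted p = 0.018), a call lost without T2 replicate 2 or T2 replicate 3 and with only the 6 libraries of 24 h (edgeR adjusted p = 0.0662). ZBTB4, a repressor that binds methylated DNA, rose at 24 h from 52.4, 49.8 and 48.4 CPM to 63.3, 56.3 and 58.1 CPM (0.24 ± 0.07, edgeR adjusted p = 0.0304). That call was lost without C2 replicate 3 or any T2 library, and with only 6 libraries (edgeR adjusted p = 0.116). The most abundant ZBTB gene, ZBTB38, was not called (0.19 ± 0.12 at 12 h and 0.28 ± 0.12 at 24 h), and ZBTB7B had 41.7 to 46.1 CPM in C1 and 37.9 to 42.1 CPM in T1.

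The ZNF genes that rose at both times were led by ZNF143, an activator of small nuclear RNA genes and many protein-coding promoters. It had 14, 12.5 and 13.96 CPM in C1, 20.8, 19 and 20.1 in T1, 12.8, 12.6 and 12.8 in C2, and 17.6, 21.4 and 20.6 in T2. All Yoda1 libraries were above all controls. The log2 fold change was 0.57 ± 0.10 at 12 h (edgeR adjusted p = 0.00625) and 0.64 ± 0.10 at 24 h (edgeR adjusted p = 0.00111). It was the only member called in all 12 leave-one-out fits at 12 h, and it was so at 24 h too. With limma on log2(TPM + 1) the 12 h call was lost (adjusted p = 0.0902).

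ZNF367, a factor studied in cell proliferation, rose from 34.4, 28.4 and 35.3 CPM in C1 to 52.2, 44.4 and 50.5 in T1 and from 42.5, 42.0 and 33.7 in C2 to 56.1, 60.4 and 68.5 in T2. The groups did not overlap at either time (0.59 ± 0.12, edgeR adjusted p = 0.0138, and 0.65 ± 0.12, edgeR adjusted p = 0.00302). ZNF574 rose from 45.7, 47.5 and 43.1 CPM to 53.0, 62.8 and 60.4 at 12 h and from 40.4, 47.2 and 45.1 to 57.2, 59.4 and 61.7 at 24 h (0.37 ± 0.09 and 0.43 ± 0.09, edgeR adjusted p = 0.0239 and 0.00503). ZNF274, a KRAB protein that brings SETDB1 to the ends of other zinc finger genes, rose from 15.4, 16.2 and 13.7 CPM to 19.02, 19.2 and 20.7 at 12 h and from 16.2, 17.99 and 16.7 to 19.3, 22.02 and 21.8 at 24 h (0.38 ± 0.10 and 0.31 ± 0.10, edgeR adjusted p = 0.0356 and 0.0399). ZNF367 and ZNF574 kept the 24 h call in all 12 fits. At 12 h ZNF367 lost it without C1 replicate 2, T1 replicate 1 or T1 replicate 3, and ZNF574 without C1 replicate 1, C1 replicate 3, T1 replicate 2 or T1 replicate 3. ZNF274 was less stable: without any of the C1 or T1 libraries, T2 replicate 2 or T2 replicate 3 the 12 h call was lost, and the 24 h call was lost without C1 replicate 1, C2 replicate 1, C2 replicate 3, T1 replicate 1, T1 replicate 3, T2 replicate 2 or T2 replicate 3. With the replicate number as a block ZNF274 was not called at 12 h (edgeR adjusted p = 0.0554, and 0.0509 with the block at 12 h only).

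Of the ZNF genes that rose at 24 h alone, ZNF296, first known from early embryos and stem cells, had the highest log2 fold change. Its CPM were 6.69, 7.75 and 7.46 in C2 and 12.1, 14.8 and 12.7 in T2, a clear gap (0.85 ± 0.15, edgeR adjusted p = 0.00216, called in all 12 fits). At 12 h it had 8.01, 9.88 and 8.36 CPM in C1 and 9.35, 13.3 and 12.0 in T1, with overlap (0.40 ± 0.15, edgeR adjusted p = 0.122). ZNF346, which binds double-stranded RNA, had 12.8, 12.8 and 10.7 CPM in C2 and 16.7, 15.96 and 16.3 in T2 (0.43 ± 0.10, edgeR adjusted p = 0.00923). It kept its call in all 12 fits and lost it with only the 6 libraries of 24 h (edgeR adjusted p = 0.0585). At 12 h its groups did not overlap either (0.29 ± 0.10, edgeR adjusted p = 0.0907). ZNF260, a zinc finger activator studied in the heart, had 17.4, 14.1 and 15.6 CPM in C2 and 23.9, 20.5 and 20.7 in T2 (0.47 ± 0.13, edgeR adjusted p = 0.0265), a call lost without C2 replicate 2, C2 replicate 3 or any T2 library. At 12 h its value was 0.40 ± 0.13 (edgeR adjusted p = 0.085). It passed with the replicate number as a block at both times (edgeR adjusted p = 0.0371) and did not with the block at 12 h only.

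At 12 h alone, ZNF609, a partner of cohesin loading and transcription complexes, rose from 68.5, 61.4 and 66.9 CPM in C1 to 95.9, 76.2 and 87.0 in T1 (0.40 ± 0.10, edgeR adjusted p = 0.0306). At 24 h it had 79.5, 73.2 and 75.4 CPM in C2 and 85.5, 68.8 and 73.8 in T2, which overlapped. Its difference between the responses was -0.40 ± 0.14 and was not called (edgeR adjusted p = 0.338). The 12 h call was lost without any of the C1 libraries, T1 replicate 1 or T1 replicate 3. ZNF800 rose from 39.7, 32.4 and 36.5 CPM to 50.7, 43.2 and 47.9 (0.39 ± 0.11, edgeR adjusted p = 0.0456), a call lost without any C1 library, T1 replicate 1, T1 replicate 3 or any T2 library.

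Of the ZNF genes that fell, ZNF362 had the lowest adjusted p. It encodes a C2H2 protein close in sequence to ZNF384. It had 42.0, 44.0 and 43.2 CPM in C1 and 33.3, 33.9 and 34.4 in T1, and 50.2, 51.6 and 54.5 in C2 and 31.95, 30.2 and 28.1 in T2. The controls were higher at 24 h than at 12 h and the Yoda1 libraries lower. It fell by 0.35 ± 0.07 on the log2 scale at 12 h (edgeR adjusted p = 0.0153) and by 0.79 ± 0.07 at 24 h (edgeR adjusted p = 0.000114). The 24 h call held in all 12 fits. The 12 h call was lost without C1 replicate 2, C1 replicate 3, T1 replicate 1 or T1 replicate 3, and with limma on log2(TPM + 1) (adjusted p = 0.0616). The difference of its responses, -0.44 ± 0.10, was not called by edgeR (adjusted p = 0.117) and was called by DESeq2 (adjusted p = 0.00593).

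ZNF608, the paralog of ZNF609, fell at 24 h from 8.78, 8.24 and 10.1 CPM in C2 to 4.92, 4.26 and 4.51 in T2, in all 12 fits (-0.98 ± 0.15, edgeR adjusted p = 0.00107). At 12 h it had 8.8, 8.15 and 7.87 CPM in C1 and 6.31, 7.27 and 5.02 in T1, also without overlap (-0.41 ± 0.15, edgeR adjusted p = 0.104). At 12 h the log2 fold changes of these paralogs thus had opposite signs, and ZNF609 alone was called. ZNF358 fell at 24 h, from 37.9, 60.8 and 67.9 CPM in C2 to 35.2, 32.7 and 33.1 in T2 (-0.72 ± 0.17, edgeR adjusted p = 0.0145), and ZNF853 from 16.2, 23.3 and 25.0 to 15.5, 13.7 and 14.5 (-0.56 ± 0.15, edgeR adjusted p = 0.0209). In both the C2 libraries spread widely, with replicate 1 the lowest, and the call was lost without C2 replicate 3, T2 replicate 2 or T2 replicate 3. ZNF214, at 2.19, 1.55 and 1.98 CPM in C2 and 1.17, 1.13 and 0.648 in T2 (-0.96 ± 0.31, edgeR adjusted p = 0.0477), and ZNF70, at 6.26, 10.5 and 9.21 CPM in C2 and 5.96, 5.88 and 6.02 in T2 (-0.54 ± 0.17, edgeR adjusted p = 0.0445), passed narrowly. ZNF214 kept its call only without C2 replicate 2, T1 replicate 1 or T1 replicate 2, and ZNF70 only without C2 replicate 1.

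The other 7 called ZNF genes fall outside the naming rule and are named here after their values were seen. At 12 h ZNF629 (0.32 ± 0.08) and ZNF384 (0.28 ± 0.08), a factor fused to other genes in leukaemia, rose with edgeR adjusted p = 0.0273 and 0.0456. ZNF629 lost its call without any of the C1 or T1 libraries, and ZNF384 kept it only without C2 replicate 1 or C2 replicate 2. With the replicate number as a block at 12 h only ZNF384 was not called (edgeR adjusted p = 0.0594). At 24 h ZNF628 (0.41 ± 0.11), ZNF668, linked to DNA repair (0.40 ± 0.12), ZNF385A, a p53 cofactor (0.35 ± 0.10), ZNF451, a SUMO ligase (0.33 ± 0.10), and ZNF133, a KRAB repressor (0.29 ± 0.09), rose with edgeR adjusted p between 0.0258 and 0.0422. ZNF628 and ZNF668 lost the call without C2 replicate 1, T2 replicate 2 or T2 replicate 3, ZNF385A without C2 replicate 2, C2 replicate 3, T2 replicate 2 or T2 replicate 3, and ZNF451 without C2 replicate 3 or any T2 library. ZNF133 kept it only without C2 replicate 2, T1 replicate 2 or T2 replicate 1. With only the 6 libraries of 24 h these 5 genes were not called (edgeR adjusted p = 0.057 to 0.131).

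**Figure D4:**
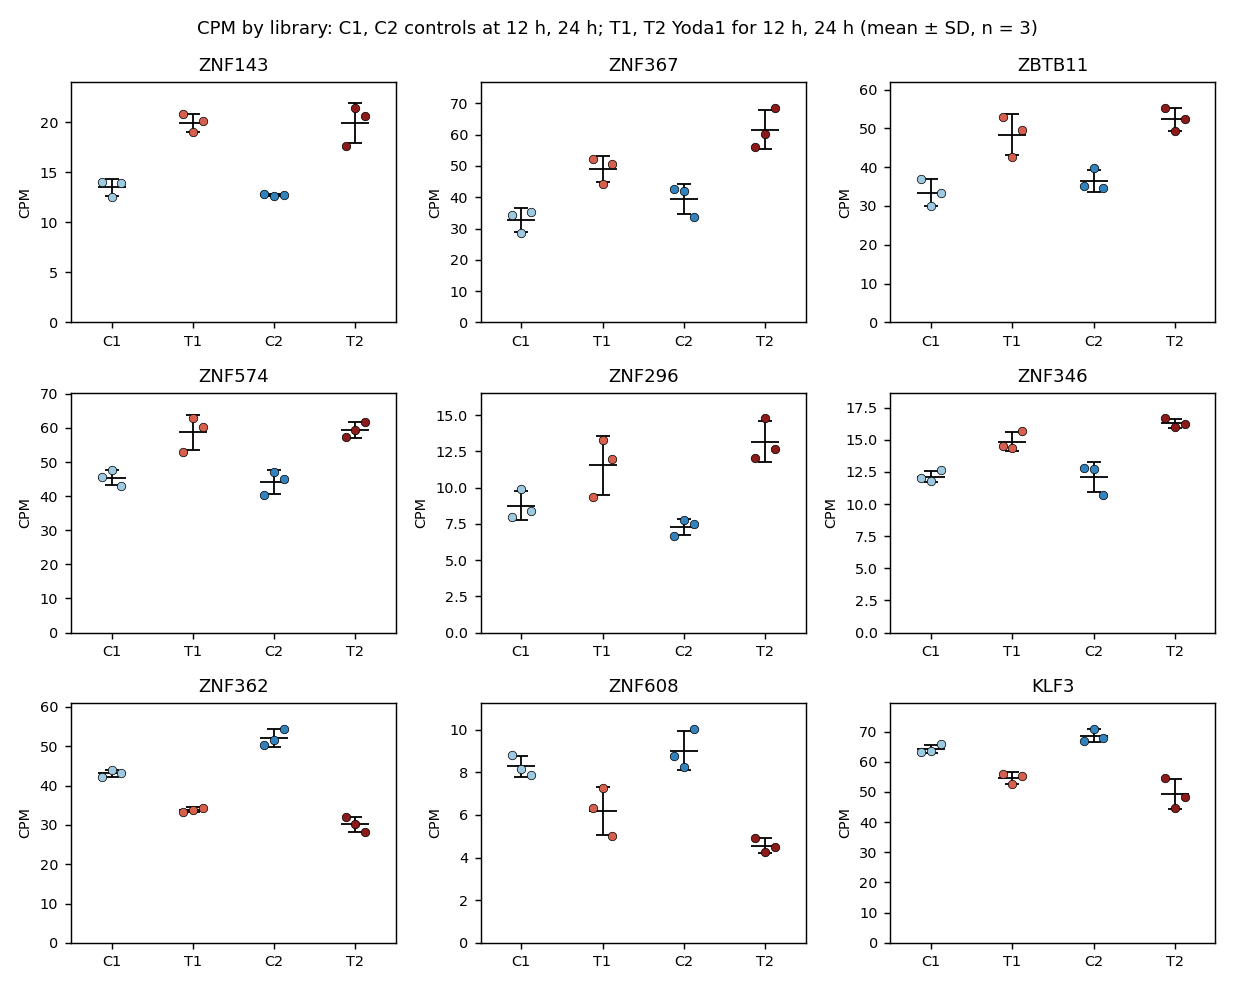
CPM by library for the 9 members called at 24 h whichever of the 12 libraries was left out; points are libraries, bars are mean ± SD, and axes start at 0. ZNF143, ZNF367, ZBTB11, ZNF574, ZNF296 and ZNF346 are higher and ZNF362, ZNF608 and KLF3 lower in T2 than in C2, without overlap.

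In the SCAN classes ZSCAN25 was the only gene called. It rose at 12 h from 9.96, 12.4 and 11.4 CPM in C1 to 14.8, 14.9 and 14.1 in T1 (0.37 ± 0.10, edgeR adjusted p = 0.0378), and had 12.9, 12.6 and 12.7 CPM in C2 and 14.4, 15.4 and 15.3 in T2, without overlap at either time. At 24 h its value was 0.24 ± 0.10 (edgeR adjusted p = 0.104). The 12 h call was lost without C1 replicate 1, C1 replicate 3, any T1 library, T2 replicate 2 or T2 replicate 3, with the replicate number as a block at both times (edgeR adjusted p = 0.0612) and with only the 6 libraries of 12 h (edgeR adjusted p = 0.0534), and kept with the block at 12 h only. The 4 ZKSCAN genes gave log2 fold changes of 0.14 to 0.27 at 12 h and -0.13 to 0.18 at 24 h, with 0 called by edgeR at either time and 0 at an unadjusted p under 0.05, where 23.4% of all genes at 12 h and 32.8% at 24 h were.

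Responses at both times were set side by side. The comparisons have separate controls. Of the 29 members called at either time, 5 rose at both (ZNF143, ZNF274, ZNF367, ZNF574 and ZBTB11), 1 fell at both (ZNF362), 6 were called at 12 h alone, 17 at 24 h alone, and 0 in opposite directions. The same split was not counted over all genes tested, so these counts have no background and show nothing particular to the members. The sign of the log2 fold change matched in 146 of 203 members (71.9%), and in 71% of all genes tested. A direct test of the difference between the responses called 0 of the 203 genes by edgeR, with 11 at an unadjusted p under 0.05 (5.42%), 1 by DESeq2, ZNF362, and 0 by limma voom. The background by edgeR was 0.155% called and 10.2% at an unadjusted p under 0.05. By DESeq2 1.55% of all genes were called. A gene called at 12 h or 24 h alone is therefore not shown to differ between times.

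**Figure D5:**
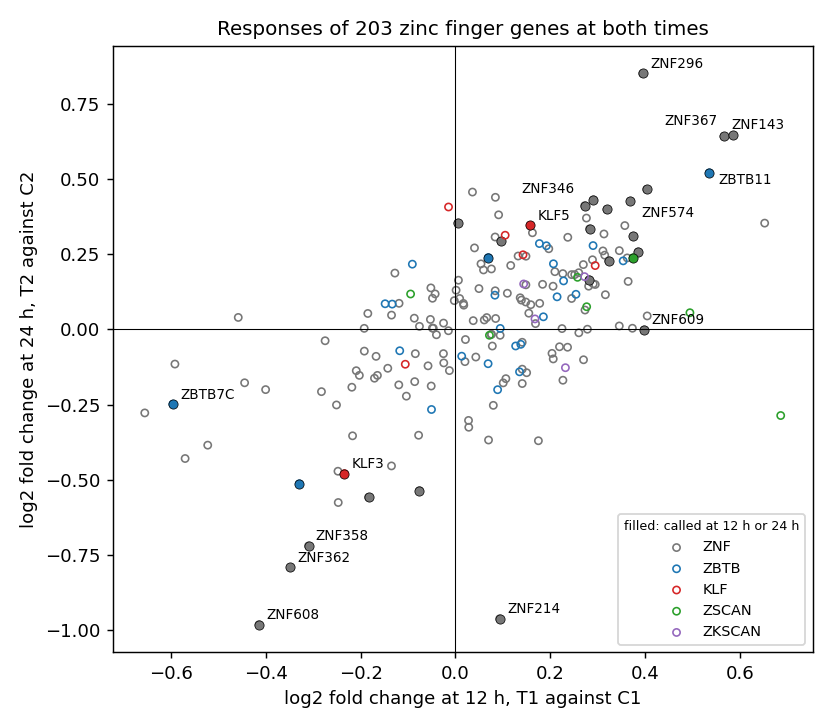
Log2 fold change at 12 h (horizontal) against 24 h (vertical) for the 203 genes, coloured by class, with filled points for the 29 called at either time. ZNF143, ZNF367 and ZBTB11 lie high at both times, ZNF362, ZNF608 and KLF3 lie low at both, and ZNF609 lies at 0.40 at 12 h and near 0 at 24 h.

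The control groups were compared too. Of the 203 genes edgeR called 0 in C2 against C1 (background 0.162%), with 29 at an unadjusted p under 0.05 (14.3%, background 11.8%), 25 of them higher in C2 (background 6.33%). DESeq2 called 5 (background 1.78%) and limma voom 0 (background 0.12%). C2 lay above C1 without overlap in 42 genes (20.7%, background 7.42%) and below in 6 (2.96%, background 6.85%). The median log2 fold change was 0.111 for ZNF, 0.024 for ZBTB and -0.102 for KLF, beside 0.016 over all genes tested. The KLF median was -0.283 without C2 replicate 2, -0.156 without C1 replicate 1, -0.029 without C1 replicate 3, -0.048 without C2 replicate 1 and -0.05 without C2 replicate 3. The ZBTB median was 0.002 without C2 replicate 2, 0.049 without C1 replicate 1 and 0.044 without C2 replicate 1. KLF15 gave -0.78 ± 0.20 (edgeR adjusted p = 0.157) and was called by DESeq2 (adjusted p = 0.0209). ZNF362 gave 0.27 ± 0.07 (edgeR adjusted p = 0.163) and was likewise called by DESeq2 (adjusted p = 0.0216). This comparison shares the C1 libraries with T1 against C1 and the C2 libraries with T2 against C2. By library, the median ZNF gene stood below its own mean over the 12 libraries by 0.053, 0.137 and 0.104 in C1 on the log2 CPM scale. In C2 the values were -0.001, -0.004 and 0.063, in T1 0.046, -0.045 and 0.005, and in T2 0.108, 0.048 and 0.063. The C1 libraries were the lowest, with the other control group near the T1 values.

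Position was a property that the rule did not use. Of the 203 genes 184 were matched by symbol or synonym to a RefSeq gene of the UU_Cfam_GSD_1.0 assembly, used here for neighbours alone since the files' build is not given. Zinc finger genes often lie in clusters that arose by duplication, and 68 of the 184 had another symbol of the rule as the next protein-coding gene on either side. Chromosome 1 of that assembly held 42 of them and chromosome 6 held 20. Such a neighbour can be that of a lone pair, as with KLF5 and KLF12, so the split does not mark clusters. Among these 68 genes 1 was called at 12 h and 5 at 24 h, and among the 116 others 10 and 17. Of all genes tested 6.99% and 18.6% were called. Median log2 fold changes were 0.082 and 0.118 at 12 h and 0.033 and 0.1 at 24 h. The 68 genes were also lower in level, with a median of 5.76 TPM against 9.65 TPM. Neighbours without a symbol of the rule were not counted. The difference was not tested. Next to each other on that map are KLF5, which rose at 24 h, and KLF12, at -0.12, and also ZNF214, which fell at 24 h, and ZNF215, at 0.05.

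Partners of these proteins were read from further lists, beside the 6.99% of all genes tested that were called at 12 h and the 18.6% at 24 h. Of 16 silencing partners of KRAB proteins 7 were tested, and 1 rose at 12 h and 0 were called at 24 h. It was SETDB1, the methyltransferase named above, at 50.1, 52.9 and 49.0 CPM in C1 and 62.4, 61.8 and 60.0 in T1 (0.28 ± 0.07, edgeR adjusted p = 0.0326). That call was lost without any C1 or T1 library, T2 replicate 2 or T2 replicate 3, and with the replicate number as a block at both times (edgeR adjusted p = 0.0596), and kept with the block at 12 h only. Of 7 tested rows for cofactors of BTB and KLF proteins 1 rose at 24 h, SAP30, a subunit of the SIN3 co-repressor complex, from 14.3, 15.96 and 17.9 CPM to 21.7, 24.9 and 22.9 (0.53 ± 0.09, edgeR adjusted p = 0.00266). Of 5 tested GATA cofactors and 3 tested genes of the ERK5 route to KLF2 and KLF4, edgeR called 0 at either time. No row carried the symbol of MAPK7, the ERK5 gene, or of KLF2, KLF4 or TRIM28, so these genes could not be read.

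Of 26 further C2H2 factors 2 rose and 1 fell at 12 h, and 2 rose and 5 fell at 24 h. Of all genes tested 3.01% rose and 3.97% fell at 12 h, and 8.96% rose and 9.61% fell at 24 h. CTCF, the insulator protein, rose at both times, from 77.3, 73.0 and 73.7 CPM to 96.2, 91.8 and 97.0 and from 78.6, 84.4 and 79.7 to 93.0, 93.6 and 97.6 (0.35 ± 0.06 and 0.23 ± 0.06, edgeR adjusted p = 0.00791 and 0.0233). Its 12 h call was lost without T1 replicate 3, and its 24 h call without C2 replicate 3, T2 replicate 2 or T2 replicate 3. VEZF1, a vascular factor, rose at 12 h (0.40 ± 0.08, edgeR adjusted p = 0.0145), but not without C1 replicate 2, T1 replicate 1 or T1 replicate 3. HINFP, a histone gene activator named after its values were seen, rose at 24 h (0.27 ± 0.08, edgeR adjusted p = 0.0341), but not without C2 replicate 1, T2 replicate 2 or T2 replicate 3. EGR1, an immediate early factor, fell at both times, from 71.0, 82.2 and 73.8 CPM to 36.9, 33.3 and 41.9 and from 103.9, 78.7 and 122.0 to 48.8, 45.0 and 42.3 (-1.02 ± 0.14 and -1.16 ± 0.14, edgeR adjusted p = 0.00174 and 0.000407). OVOL1, an epithelial repressor, fell at 24 h from 10.5, 8.69 and 9.08 CPM to 5.57, 5.32 and 4.65 (-0.87 ± 0.14, edgeR adjusted p = 0.0014). SAP30, EGR1 and OVOL1 kept these calls in every fit run. IKZF2, a lymphoid factor with 16.01, 4.95 and 6.49 CPM in C2 and 4.43, 2.64 and 3.21 in T2, fell at 24 h (-1.42 ± 0.38, edgeR adjusted p = 0.0254), a call lost without T2 replicate 2 or T2 replicate 3. IKZF4, also named after its values were seen, fell at 24 h (-0.64 ± 0.19, edgeR adjusted p = 0.0306), a call lost without C2 replicate 1, C2 replicate 3, T2 replicate 2 or T2 replicate 3. EGR2, a relative of EGR1 at no more than 1.04 CPM in any library, passed at the limit at 24 h (-0.84 ± 0.28, edgeR adjusted p = 0.05) and lost the call without any of the 12 libraries and by DESeq2 (adjusted p = 0.114).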

How the data were processed

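RNA was measured in 12 libraries of MDCK cells, 3 per group. Per the labels' protocols, poly(A) RNA was made into stranded libraries and sequenced as 101 bp paired reads, and the submitters' processing notes name fastp 0.23.4, STAR 2.7.10b and RSEM 1.3.3. The sources used here do not name a genome build. The authors deposited expected counts and TPM per gene. RSEM shares reads between similar sequences, so values of near-identical zinc finger genes are less certain. Expected counts were rounded, filtered with filterByExpr (14169 of 31121 genes kept), scaled by TMM and tested with edgeR 4.0.16 (quasi-likelihood, one mean per group, all 12 libraries, Benjamini-Hochberg adjustment over all genes tested). Calls needed an adjusted p under 0.05, and SE is the log2 fold change divided by the square root of F. CPM use the scaled library sizes. Levels of different genes were compared in TPM only.

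The members and gene lists were chosen with earlier results of these data known. Genes were named by a rule: all KLF genes, up to 6 called ZNF and ZBTB genes in each direction at each time, the 2 most abundant of each, and up to 4 called genes of each further list. Replicate numbers were checked for pairing. Deviations of same-numbered libraries correlated at 0.11, 0.25 and 0.118 for C1 with T1, and at 0.0642, -0.0659 and -0.0415 for C2 with T2. Libraries with unlike numbers gave -0.161 to 0.06 at 12 h and -0.103 to 0.135 at 24 h. The numbers were taken to pair libraries at 12 h alone, from the data and not the labels. This pairing is uncertain, since 0.135 for C2 replicate 3 with T2 replicate 2 lies above 0.11 and 0.118. Alternatives were DESeq2 1.42.0, limma 3.58.1 (voom, or log2(TPM + 1) and log2(TPM + 0.1)), other scalings, no filter, 6 libraries, a replicate block and leaving out each library. On simulated counts for the 12 h comparison (13991 genes, 100 changed at each fold) 45% of genes changed 1.5-fold and 63% of those changed 2-fold were recovered, with 2 false calls.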

Additional observations from a re-analysis of the deposited data

How the results depend on the processing

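No median of ZNF, ZBTB or KLF at 12 h or 24 h and no fold change of a called gene named here changed sign under the alternatives run. The medians of ZSCAN and ZKSCAN were not recomputed under them. The median over all genes did, at 24 h with library size (0.017), log2(TPM + 1) (0.026) and log2(TPM + 0.1) (0.033), and at 12 h without T1 replicate 2 (-0.003). With library size, log2(TPM + 1) and log2(TPM + 0.1) it kept its sign at 12 h and was 0.046, 0.064 and 0.08. The count of 12 members at 12 h was 20 by DESeq2 and 19 with scaling by library size, with 11.6% and 8.86% of all genes called. That of 23 at 24 h was 8 with only 6 libraries, with 8.15% of all genes called. DESeq2 called 1 member in the difference between responses and 5 in C2 against C1, where edgeR called 0. The shares over all genes were 1.55% and 1.78% by DESeq2, and 0.155% and 0.162% by edgeR. At 12 h the KLF median was 0.15 with log2(TPM + 1) and 0.152 with log2(TPM + 0.1), the latter giving 0.154 for ZNF and 0.179 for ZBTB. At 24 h the KLF median was 0.293 by limma voom, 0.282 with library size, 0.288 with the replicate block, 0.317 with log2(TPM + 1) and 0.329 with log2(TPM + 0.1). The cause was not tested.

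Leaving out 1 library at a time gave 1 to 19 members at 12 h, 9 to 28 at 24 h, 0 to 1 in the difference and 0 to 3 in C2 against C1. In the same order, the share of all genes called ran from 1.16% to 11.7%, 7.88% to 23.2%, 0% to 2.52% and 0.00694% to 1.96%. Medians ran from 0.043 to 0.128 (ZNF), 0.068 to 0.153 (ZBTB) and 0.049 to 0.179 (KLF) at 12 h, and from 0.014 to 0.067, 0.047 to 0.118 and 0.116 to 0.429 at 24 h. The replicate block called 12 members at 12 h, of which 10 were called without it, and 25 at 24 h, where the numbers did not pair the libraries. A block at 12 h only, chosen after seeing the data, called 10. With 3 libraries per group, a gene that was not called may still have changed. The simulation, with its 45% recovery of 1.5-fold changes, changed 100 genes at each fold, while 990 genes were called at 12 h in the data. It held no smaller changes, so it does not give the recovery rate in these data.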

Other observations

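All 12 members called at 12 h, and 16 of the 23 called at 24 h, had a mean of 8 TPM or more. Of the 104 members at 8 TPM or more, 11.5% were called at 12 h and 15.4% at 24 h, where 8.24% and 22.3% of all genes tested at that level were. Of the 68 members from 2 to 8 TPM, 0% and 7.35% were called, beside 6.47% and 15% of all genes at that level. Of the 31 from 0.5 to 2 TPM, 0% and 6.45% were called, beside 3.4% and 10.1%.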
